A study of Ananas comosus with 8 samples.

Results

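The malic enzymes and pyruvate orthophosphate dikinases (PPDK) of the pineapple leaf were described as 5 genes of the 27024 in the deposited expression matrix. They were taken by gene identifier from a list of 38 carbon fixation genes of the study, and all 5 had a row. That list was read from the study's primer list, with Aco019038 added from its gene labels. Aco005631 and Aco009967 are named by the study as NADP-malic enzyme (NADP-ME) genes. Aco007622 is named NAD-malic enzyme (NAD-ME) in the study's gene labels and stands among the NADP genes in its primer list, so its cofactor is not settled here. Aco024818 and Aco014488 are the PPDK genes. The list holds 2 further malic enzyme genes, Aco016569 and Aco005989, whose values are given beside these 5 so that the family is complete.

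RNA came from the "D" leaf of pineapple (Ananas comosus), cultivar MD-2, and the labels name no treatment or genetic change. Photosynthesis takes place at the green tip, and the white base is the non-photosynthetic region. The labels name 2 RNA-seq libraries for each part and no time of day. The study's methods give 2 libraries in place of 3 only for a mid-morning sampling, so that a mid-morning harvest is an inference. The study reports diel expression for genes of this list, and levels at other times of day were not compared here. The matrix holds 1 FPKM value for each gene in each tissue, without SD or a test. By definition FPKM is sequenced fragments scaled to transcript length and to the mapped reads. Whether these columns were scaled further is not given. The differences below therefore describe those values and have no replicate check here. The study itself called genes with DESeq2 on its libraries. Its primer list for quantitative PCR, run on at least 3 biological replicates, holds all 5 genes. Those results were not compared here.

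In Crassulacean acid metabolism (CAM), phosphoenolpyruvate carboxylase (PEPC) fixes carbon at night, malate dehydrogenase (MDH) makes malate from the product, and the malate is kept in the vacuole. By day the malate is released and decarboxylated behind closed stomata. Malic enzyme splits it into pyruvate and CO2, with NADP or NAD as the electron acceptor, and PPDK spends ATP and phosphate to turn the pyruvate back into phosphoenolpyruvate. Plants also use these enzymes away from CAM. NADP-ME supplies NADPH for biosynthesis and NAD-ME feeds pyruvate to the mitochondrion. Pineapple and other bromeliads are in addition known for decarboxylation by phosphoenolpyruvate carboxykinase, which is outside the gene list used here.

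The 5 genes did not share a direction. On the scale of log2(FPKM + 1), which understates the difference of genes with low FPKM, 2 genes were at least 2-fold higher at the green tip, 2 were at least 2-fold higher at the white base and 1 lay between. All 5 had a mean over 0.5 FPKM. Among all 18372 genes with a mean over 0.5 FPKM, 17.2% were at least 2-fold higher at the green tip and 20.7% at the white base. These shares come from 3169 and 3812 genes, which TPM rescaling (each column brought to the same sum) turned into 1648 and 7725. The median log2 ratio, green tip over white base, was 0.57 over the 5 genes and -0.0095 over all genes compared. TPM rescaling turned these medians to -0.16 and -0.80. The count of the 5 genes at least 2-fold higher at the green tip was 1 in place of 2 with TPM rescaling, with quantile normalization and with scaling to a sum without the 100 highest genes of each tissue. The 5 log2 ratios ran from -3.48 to 5.87 as deposited. As these are whole tissues, fewer cells of a type and less RNA per cell cannot be told apart.

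**Figure D1:**
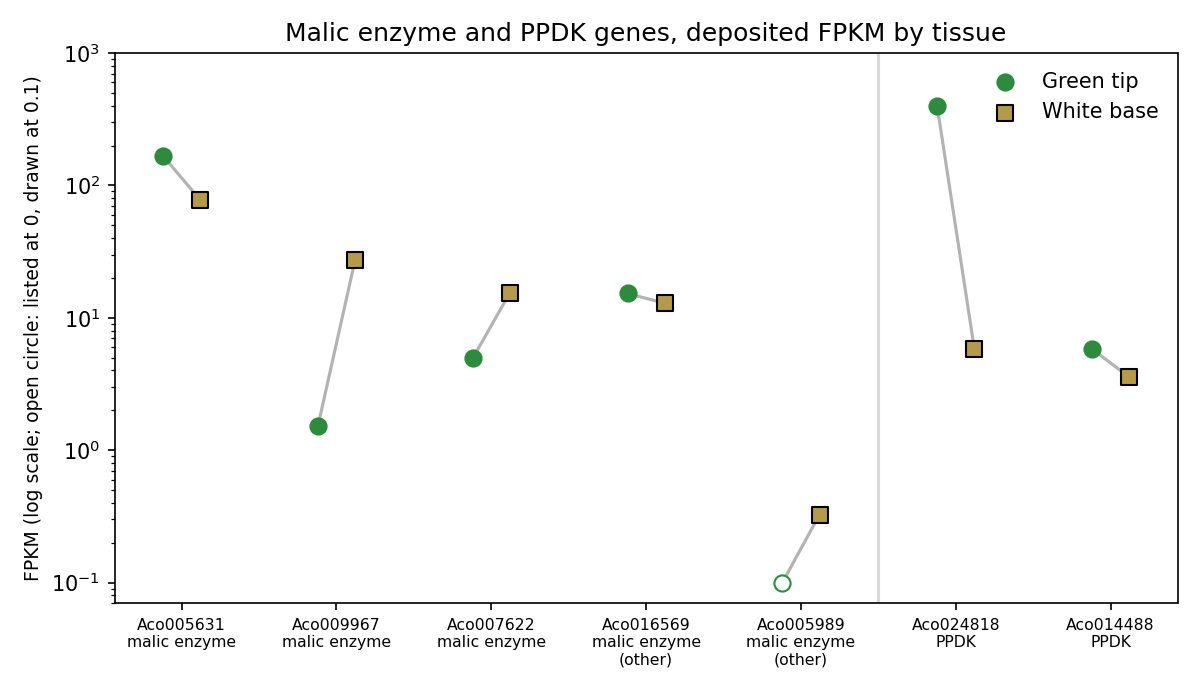
Deposited FPKM (log axis) of the malic enzyme and PPDK genes at the green tip (circles) and the white base (squares), 1 value per tissue and no error bars. Aco024818 has 396 FPKM at the green tip and 5.81 FPKM at the white base while Aco009967 has the opposite order, 1.51 and 27.1 FPKM, and the open circle marks Aco005989, listed at 0 at the green tip.

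Aco005631 had the highest FPKM of the malic enzyme genes in both tissues. It had 167 FPKM at the green tip and 77.8 FPKM at the white base. These levels lay at percentile 95.8 of the genes over 0.5 FPKM at the green tip and at percentile 92.2 at the white base, so this NADP-ME was abundant on both sides of the comparison. The difference in FPKM was 2.15-fold and the log2 ratio 1.09. It came under 2-fold with quantile normalization (0.82), with TPM rescaling (0.21) and with scaling to a sum that leaves out the 100 highest genes of each tissue (0.91). TPM rescaling moved the median of all genes compared to -0.80, and relative to that median Aco005631 stood at 1.01, against 1.10 as deposited. With quantile normalization it stood at 0.70 relative to the median, under 2-fold.

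Aco009967, the other NADP-ME gene among the 5, had the opposite pattern. It had 1.51 FPKM at the green tip and 27.1 FPKM at the white base, a 17.9-fold difference in FPKM and a log2 ratio of -3.48 on FPKM + 1. At the green tip it lay at percentile 11.1 of the genes over 0.5 FPKM and at the white base at percentile 72.7. Of the 18372 genes compared, 722 had a log2 ratio this low or lower. It stayed past 2-fold in every setting of the plot of log2 ratios by processing, and TPM rescaling took it to -4.28.

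Aco007622 was the third malic enzyme gene and also had more FPKM at the white base. It had 4.94 FPKM at the green tip and 15.4 FPKM at the white base, a 3.13-fold difference in FPKM and a log2 ratio of -1.47. Its percentile was 28.4 at the green tip and 55.8 at the white base, and 2657 of the genes compared had a log2 ratio this low or lower. TPM rescaling took its log2 ratio to -2.30.

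The 2 malic enzyme genes outside the 5 differed little or were hardly expressed. Aco016569, named like Aco007622 in both of the study's sources, had 15.3 FPKM at the green tip and 12.9 FPKM at the white base, and its log2 ratio of 0.23 was reversed to -0.61 by TPM rescaling. At the green tip it was thus the second malic enzyme gene by FPKM, 3.09 times as high as Aco007622, and at the white base it stood below Aco007622. Aco005989 was listed at 0 at the green tip and at 0.326 FPKM at the white base, under the level taken as expressed.

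Because FPKM is per length, the genes of a family can be set against each other within a tissue, and such shares do not change with a linear scaling of the tissue columns. Aco005631 made up 88.5% of the summed malic enzyme FPKM at the green tip and 58.2% at the white base. Aco009967 made up 0.803% at the green tip and 20.3% at the white base. For Aco007622 the shares were 2.62% and 11.6%, and for Aco016569 8.09% and 9.65%. Malic enzyme transcripts of the green tip were therefore mostly from 1 NADP-ME gene, whereas at the white base 4 genes each held over 9% of the sum. The ratio of Aco005631 to Aco009967, both named NADP-ME, was 110 at the green tip and 2.87 at the white base.

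**Figure D2:**
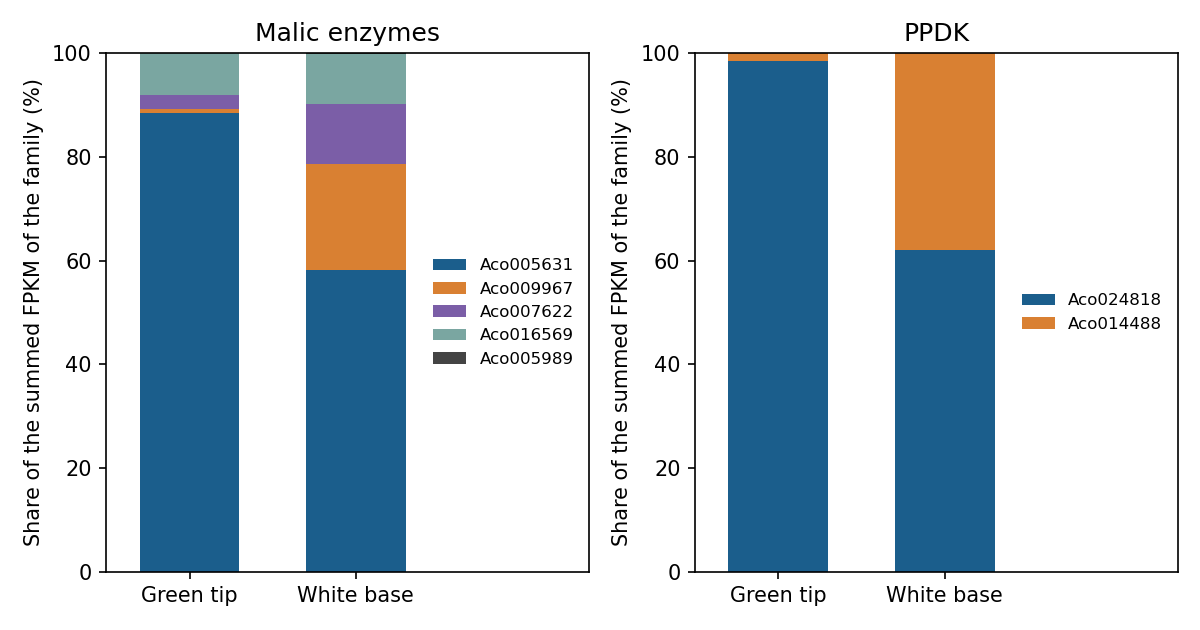
Share of each gene in the summed FPKM of its family (%), by tissue, for 5 malic enzyme genes and 2 PPDK genes. Aco005631 takes 88.5% of the malic enzyme sum at the green tip and 58.2% at the white base, and Aco024818 takes 98.6% and 61.9% of the PPDK sum.

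Summed over the family, malic enzyme differed by less than 2-fold between the tissues. The 5 genes summed to 189 FPKM at the green tip and 134 FPKM at the white base, a log2 ratio of 0.49. With the 3 genes of the opening alone the sums were 173 and 120 FPKM and the log2 ratio was 0.52. TPM rescaling reversed the direction of the sum of 5 genes, at -0.39, so no direction is given for it here.

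PPDK had the largest contrast of the 5 genes. Aco024818 had 396 FPKM at the green tip and 5.81 FPKM at the white base, a 68.1-fold difference in FPKM and a log2 ratio of 5.87. It ranked 258 of all 27024 genes at the green tip and 12665 at the white base. Of the 18372 genes compared, 43 had a log2 ratio this high or higher, itself included, and 16 of these also had at least its green tip FPKM. The smallest log2 ratio it took in any setting was 5.06, after TPM rescaling.

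The second PPDK gene, Aco014488, was low in both tissues. It had 5.81 FPKM at the green tip and 3.57 FPKM at the white base, at percentiles 31.4 and 21.7 of the genes over 0.5 FPKM. Its log2 ratio of 0.57 was within 2-fold, and TPM rescaling reversed it to -0.16. In deposited FPKM, Aco014488 at the green tip thus stood at about the level of Aco024818 at the white base. After TPM rescaling the 2 values were 5.11 and 9.51. The ratio of Aco024818 to Aco014488 was 68.2 at the green tip and 1.63 at the white base, and the share of Aco024818 in the PPDK sum was 98.6% and 61.9%. The white base column thus held both PPDK genes at low and similar FPKM.

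**Figure D3:**
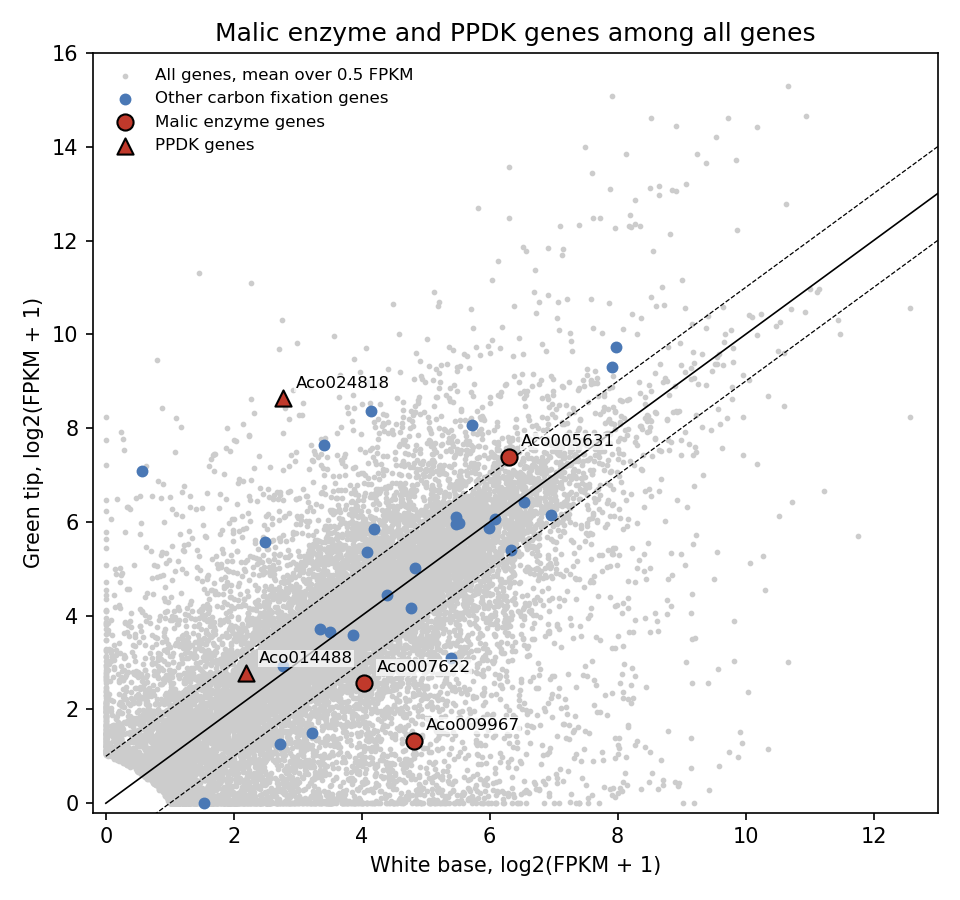
Green tip against white base, both as log2(FPKM + 1), for all 18372 genes with a mean over 0.5 FPKM (grey), the other carbon fixation genes (blue), and the malic enzyme (red circles) and PPDK genes (red triangles), with lines of equality (solid) and 2-fold difference (dashed). Aco024818 stands far above the upper dashed line with a log2 ratio of 5.87, Aco009967 and Aco007622 lie below the lower one, Aco005631 is on the upper one and Aco014488 lies between them.

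The transcript ratio of PPDK, which recycles pyruvate, to malic enzyme, which releases it, differed between the tissues. Summed PPDK FPKM was 2.13 times the summed malic enzyme FPKM at the green tip and 0.0703 times at the white base, a 30.3-fold difference between the tissues that no linear scaling of the columns can change. Against PEPC, the carboxylase of the night, the PPDK sum stood at 0.532 at the green tip and 0.0224 at the white base. The malic enzyme sum stood at 0.250 of the PEPC sum at the green tip and 0.319 at the white base, and at 0.102 and 0.180 of the MDH sum. Between the tissues, green tip over white base, these ratios differed 23.8-fold for PPDK to PEPC, 0.783-fold for malic enzyme to PEPC and 0.565-fold for malic enzyme to MDH. These are ratios of transcripts and say nothing of enzyme activity or of change over the day.

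A gene that leads its family at the green tip and has a smaller share at the white base was also seen elsewhere in the pathway. Among the 8 families of the list, the gene with the highest green tip FPKM had the larger share at the green tip in each family but PPCK, the PEPC kinase, where the share of Aco013938 was 83.7% at the green tip and 95.1% at the white base. The PPCK shares rest on low values, as Aco013938 had 1.81 FPKM at the green tip. The other PPCK gene, Aco010095, had 0.354 FPKM at the green tip and 0.424 FPKM at the white base. The leading genes were picked on their green tip values, so the direction of the difference in share is in part set by the choice. The differences in share were 36.6 percentage points for PPDK, 32.5 for the alpha carbonic anhydrases (Aco007803), 30.3 for the malic enzymes and 26.7 for PEPC (Aco010025). They were smaller for the beta carbonic anhydrases (Aco005402, 15.8), the gamma carbonic anhydrases (Aco019038, 13.1) and MDH (Aco013935, 11.8). The same gene led both tissues in PPDK, malic enzyme, PEPC, PPCK, MDH and alpha carbonic anhydrase. At the white base Aco002732 led the beta and Aco014975 the gamma carbonic anhydrases, which hydrate CO2 to bicarbonate.

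**Figure D4:**
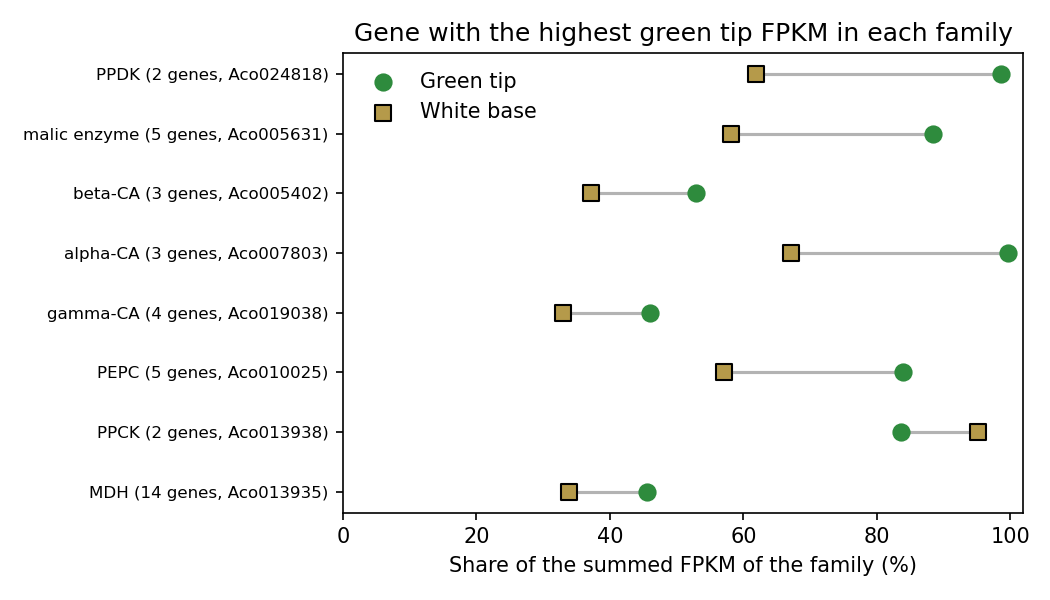
For each family of the carbon fixation list, the share (%) that the gene with the highest green tip FPKM held in the summed FPKM of its family, at the green tip (circles) and at the white base (squares), 1 value per tissue. The share is larger at the green tip in every family but PPCK, whose green tip sum is only 2.16 FPKM. The widest gap, 36.6 percentage points, is that of PPDK.

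Outside the malic enzymes and PPDK, 28 of the 31 other carbon fixation genes passed the mean of 0.5 FPKM. Of these, 9 were at least 2-fold higher at the green tip and 4 at the white base, and their median log2 ratio was 0.16. By step, 4 of the 9 carbonic anhydrase genes compared were higher at the green tip and 2 at the white base. For PEPC the counts were 1 and 1 of 5 genes, for MDH 4 and 0 of 13, and for PPCK 0 and 1 of the 1 gene compared, Aco013938, with a log2 ratio of -1.72. Malic enzyme had 1 and 2 of 4 genes compared, and its lowest log2 ratio, that of Aco009967, was also the lowest of the 34 genes compared in the whole list. Over these 34 genes the counts were 11 at the green tip and 6 at the white base, and TPM rescaling turned them into 6 and 11. The highest log2 ratio was 6.52, in a beta carbonic anhydrase, followed by that of the PPDK gene Aco024818.

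The carbon fixation gene nearest to each of the 5 genes was found by the distance between their pairs of log2(FPKM + 1) values, over 2 tissues and 33 candidate genes. The nearest to Aco024818 was the beta carbonic anhydrase Aco005402, with 198 FPKM at the green tip and 9.68 FPKM at the white base, at a distance of 1.19. Among all genes compared, 8 lay within a distance of 0.5 of Aco024818, whereas 551 lay that near to Aco014488, whose nearest was the MDH gene Aco017527 (6.56 and 5.82 FPKM, at 0.60). For Aco005631 it was the MDH gene Aco010232, with 267 and 52.0 FPKM, at 0.89. For Aco007622 it was the PEPC-related gene Aco022525, with 11.0 and 13.5 FPKM, at 1.03. For Aco009967 it was Aco007622 itself, at 1.46, the widest of these 5 distances. With 2 values per gene, nearness ranks the candidates by level and does not make the levels alike. Among all genes compared, 32 lay at or within the distance of the nearest listed gene for Aco024818 and 420 for Aco005631. The counts were 745 for Aco014488, 847 for Aco009967 and 1717 for Aco007622.

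The beta carbonic anhydrases of the list, enzymes known from photosynthetic leaf, were set beside the tissue labels. The study reports these genes as high at the green tip from its own RNA-seq, so they are no independent check of the labels. All 3 were at least 2-fold higher at the green tip as deposited. The lowest of their log2 ratios was 1.29, in Aco002732, which the TPM shift of -0.89 takes under 2-fold. The summed FPKM of the columns differed 1.86-fold, with 1136442 at the green tip and 611241 at the white base, and the 100 highest genes held 50.0% and 18.7% of it. The part of this imbalance in the log2 ratios was not tested, beyond the scalings given here. FPKM values carry no depth, so no counting interval can be given.

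**Figure D5:**
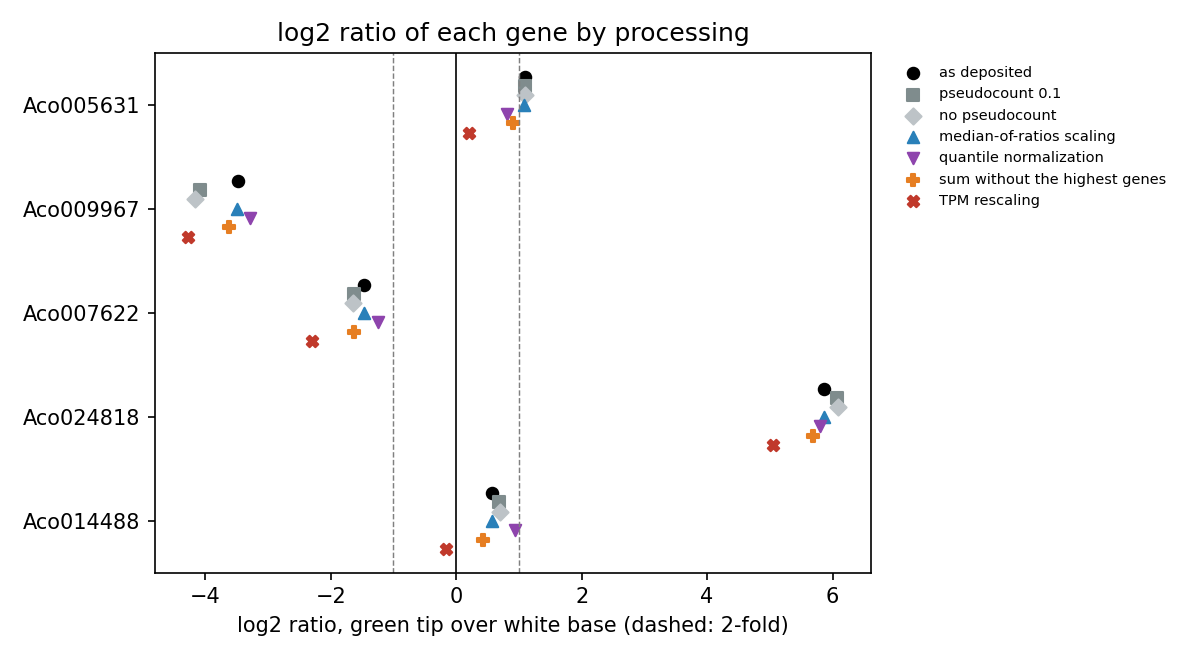
log2 ratio, green tip over white base (x axis), of the 5 genes under each processing, 1 symbol per setting, with 2-fold marked by dashed lines. Aco024818, Aco009967 and Aco007622 keep their side of 2-fold in every setting drawn, while Aco005631 runs from 0.21 to 1.10 and Aco014488 from -0.16 to 0.94.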

How the data were processed

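RNA-seq FPKM values deposited by the authors were used, 1 column for the green tip, 1 for the white base and 1 with their mean. The study's methods name Trimmomatic, HISAT2 with uniquely mapped reads and StringTie, whereas the submitters' processing notes name TopHat2 2.1.0, Cufflinks and Cuffdiff 2.2.1. Which set of tools made the deposited FPKM values, and how the pair of libraries of each tissue was merged and scaled, is not given in the sources used here. The 4 bisulfite sequencing libraries were not analysed here.

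With 1 value per tissue no test was possible. The log2 ratio of the tissues was taken on FPKM + 1 (a pseudocount of 1) wherever the mean passed 0.5 FPKM, and 2-fold was the criterion. Levels were compared between genes as FPKM, which is per length. The 5 genes and the carbon fixation list were chosen with earlier results of these data known. The genes named are those 5, the other 2 malic enzyme genes, the nearest carbon fixation gene of each of the 5, and the leading gene of each other family in each tissue. No gene identifier matched the RefSeq gene table (assembly ASM154086v1), so gene names are the study's and neither coordinates nor sequences are given. Similarity between gene copies was not checked.

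Alternatives were a pseudocount of 0.1 or none, other filters, TPM rescaling, median-of-ratios scaling, quantile normalization, a 1.5-fold criterion and, chosen after seeing the data, scaling to a sum without the 100 highest genes of each tissue. The code was tested on simulated data. Python 3.11.15, numpy 2.4.6, pandas 2.3.3 and matplotlib 3.10.9 were used.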

Additional observations from a re-analysis of the deposited data

How the results depend on the processing

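No paired analysis was possible because each tissue has a single deposited column, which also means that no library could be left out. A result was taken as moved at a change of over 1.5 times or a crossing of 2-fold. TPM rescaling, which by construction shifts every log2 ratio by -0.89 ahead of the pseudocount, moved the log2 ratios of Aco005631 to 0.21, Aco009967 to -4.28, Aco007622 to -2.30, Aco024818 to 5.06 and the PPDK sum to 4.44. It reversed Aco014488 (-0.16), Aco016569 (-0.61) and the malic enzyme sum (-0.39). Under it 1648 of all genes were at least 2-fold higher at the green tip (3169 as deposited) and 7725 at the white base (3812), or 6 (11) and 11 (6) of the carbon fixation genes.

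Aco005631 also came under 2-fold with quantile normalization (0.82) and with the sum without the highest genes (0.91), and the log2 ratio of Aco009967 was -4.08 with a pseudocount of 0.1 and -4.16 without a pseudocount. The green tip percentile of Aco009967 was 22.7 among all genes above 0 and 4.84 among genes over 1 FPKM. At a 1.5-fold criterion 12 carbon fixation genes were higher at the green tip (11 at 2-fold) and 9 at the white base (6 at 2-fold). Median-of-ratios scaling and the restriction to 3 malic enzyme genes moved no result by these criteria. The former shifted the log2 ratios by only -0.0085 ahead of the pseudocount, so it could hardly have moved any. Shares within a family cannot change with a linear scaling of the columns.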
